A study of Mus musculus with 2 samples.

Results

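The genes described are a list of 44 that encode synaptic vesicle proteins, the machinery of vesicle release, dense-core granule cargo, synaptic adhesion molecules and synapse scaffolds. Gene names were matched in both single-cell files of the series, and 43 of the 44 were found in both. Pclo, a large scaffold of the release site, was found in the P12 file alone. The files share 16055 gene names, out of 24858 at P12 and 19714 at P24-30.

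Both files come from medulloblastomas of hGFAPcre;Ptchc/c mice, profiled by Drop-seq, in which single cells are captured in droplets and the 3′ ends of their transcripts are counted. In these mice Cre is driven by a GFAP promoter and the Ptch gene is the conditional allele. Medulloblastoma is a tumour of the cerebellum, and Ptch encodes the receptor that holds Hedgehog signalling in check. One library is from postnatal day 12 (P12) and the other from postnatal days 24 to 30 (P24-30). Both ages carry the same genotype, no normal cerebellum was analysed here, and the sources used here do not say how many animals were pooled. With 1 library per age there is no replicate check, so no test was made, and age and library cannot be told apart. Intervals are 95% intervals that cover counting error only.

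A synapse releases transmitter when a vesicle carrying VAMP meets syntaxin and SNAP25 on the plasma membrane, with synaptotagmin as the calcium sensor and complexin, Rab3, RIM and Munc13 proteins preparing the vesicle. Neurexins on the sending side bind neuroligins on the receiving side, where PSD-95, Shank and Homer proteins form the scaffold. Dense-core granules store peptides with chromogranins and secretogranins. Hedgehog medulloblastoma cells resemble granule neuron progenitors, which in the normal cerebellum leave the cell cycle and become glutamatergic granule neurons.

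After filtering, 5723 P12 cells with a median of 1805 UMIs (unique transcript counts) and 4796 P24-30 cells with a median of 2193.5 UMIs were kept. Cells were clustered within each library without the synapse genes and named from marker lists that hold none of them. At P12 this gave 2686 cycling cells, 579 neuron-like cells and 104 oligodendrocyte-lineage-like cells. All 16 neuron markers were at least 2-fold higher in the neuron-like cells than in the cycling cells, and all 25 markers of G2 and M phase were at least 2-fold lower. The same lists named the clusters, so these folds describe the classes and are no separate check of the names. The neuron markers summed to 20687 CPM (UMIs per 1000000 UMIs of the same cells) in the neuron-like cells and to 3804 CPM in the cycling cells. Markers of mature granule neurons summed to 58.9 CPM in neuron-like and 47.0 CPM in cycling cells, close to the 55.7 CPM of microglia-like cells. In the oligodendrocyte-lineage-like cells these markers summed to 365 CPM. The oligodendrocyte-lineage markers summed to 15093 CPM in the cells of that name, against 559 CPM in the cycling cells. Median depth differed, at 2033 UMIs in cycling cells, 1435 in neuron-like cells and 1605.5 in oligodendrocyte-lineage-like cells, and its part in the folds below was not tested. Cell names of the P24-30 file begin with 1 of 16 tags, written G1 to G16, whose meaning the labels leave unsaid. The tags are groups of cells from 1 library and not replicates. Whether the synapse genes were used to form them is unknown, unlike for the clusters made here, which left those genes out.

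The 43 genes together made up 1552 CPM in cycling P12 cells, 3816 CPM in neuron-like cells and 2894 CPM in oligodendrocyte-lineage-like cells. In 87 microglia-like cells, used here as a reference class, they summed to 306 CPM, and in 38 astrocyte-like cells to 1981 CPM. Whether free RNA or pairs of cells supplied these UMIs was not tested. Folds below are CPM ratios divided by that of the median gene, and a gene entered a count when its library held at least 50 of its UMIs. At P12 this left 36 of the 43. Vamp1, Syt4, Syt5, Dnm1, Slc17a7, Shank1 and Shank2 were below it.

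In neuron-like over cycling P12 cells, 22 of the 36 genes were at least 2-fold higher and 0 were at least 2-fold lower. Of all 11558 genes counted the same way, 12.2% were higher and 15.1% lower by that much. The median of the 36 was a log2 fold of 1.27, against 0 for all genes by construction. By role, these were 5 of 6 vesicle membrane genes, 5 of 8 active-zone genes and 4 of 5 adhesion genes. The others were 1 of 3 SNAREs, 2 of 3 synaptotagmins, 1 of 2 endocytosis genes and 1 of 1 glutamate transporters. Granule cargo gave 2 of 5 and postsynaptic scaffolds 1 of 3. At a 3-fold limit 13 of the 36 counted as higher, beside 5.28% of all genes. With at least 200 UMIs per gene, 10 of 21 were at least 2-fold higher, beside 9.2% of all genes.

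**Figure D1:**
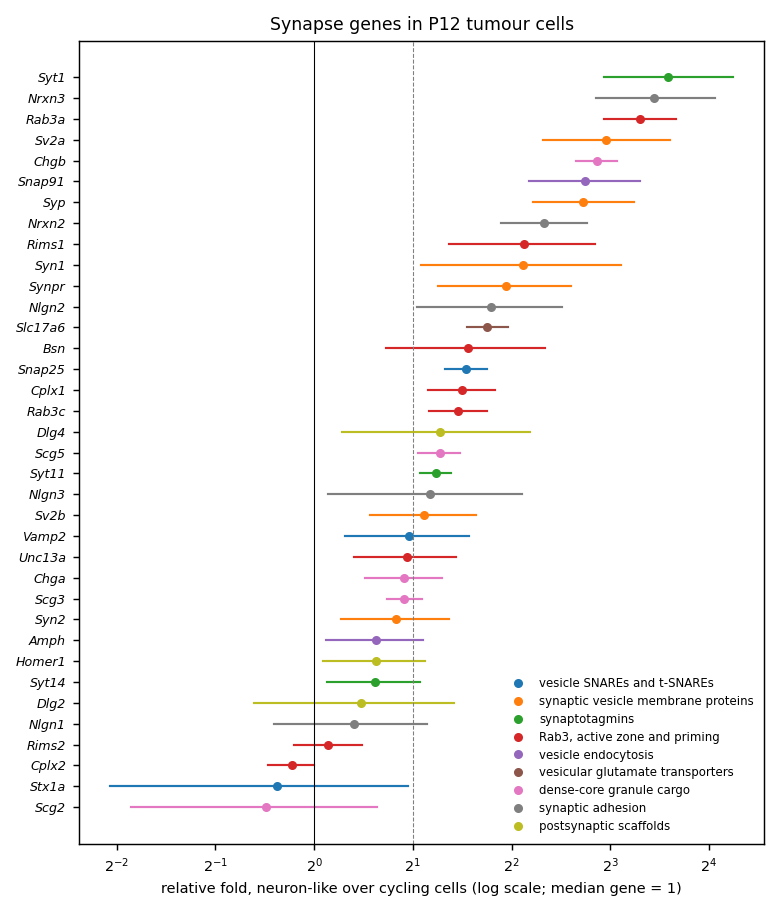
Relative fold of each of the 36 counted synapse genes in neuron-like over cycling P12 cells (log axis; 1 is the median gene, the dashed line is 2-fold). Points are folds from summed UMIs of 1 library, bars are 95% counting intervals, and colours are roles; Syt1, Nrxn3 and Rab3a lead, and Cplx2, Stx1a and Scg2 lie below 1.

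In oligodendrocyte-lineage-like over cycling cells, 12 of the 36 genes were at least 2-fold higher and 4 at least 2-fold lower, beside 15.8% and 17.0% of all genes. The median log2 fold was 0.68, with Sv2b, Scg2, Synpr, Dlg2 and Stx1a, which had 0 UMIs in the glial class, at their upper bounds. The median gene differed by a log2 of 0.12 before the division. When cells were classed one by one by their highest marker score, without clusters, 5 of the 36 were at least 2-fold higher, beside 4.93% of all genes, in 1112 cells given the glial name rather than 104. In that setting Nrxn2 was 4.73-fold, Nrxn3 2.41-fold, Sv2a 2.16-fold, Nlgn3 2.14-fold and Syn2 2.02-fold higher.

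Among the SNAREs, Snap25 (plasma-membrane SNARE) stood at 96.2 CPM in cycling, 276 CPM in neuron-like and 113 CPM in oligodendrocyte-lineage-like cells. Its neuron-like level was 2.91-fold the cycling level (2.503 to 3.38), while the oligodendrocyte-lineage-like level was 1.08-fold (0.67 to 1.65). Vamp2, the vesicle SNARE, was 16.5, 31.6 and 35.99 CPM in the same order, a neuron-like fold of 1.95 (1.24 to 2.97), just under the 2-fold limit. Stx1a, the syntaxin partner of both, was no higher in neuron-like cells, at 5.45 against 7.19 CPM, and had 0 UMIs in the oligodendrocyte-lineage-like cells. Those cells hold few UMIs, so 3 UMIs, the limit that a count of 0 allows, is 15.4 CPM there. Snap25 UMIs were seen in 4.62% of cycling cells (3.85 to 5.48) and 11.2% of neuron-like cells (8.77 to 14.1) after every cell was thinned to 500 UMIs. Without thinning these shares were 18.4% and 31.3%. In microglia-like cells, with a median of 2091 UMIs, the thinned share of Snap25 was 1.15% (0.0291 to 6.24).

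Of the vesicle membrane genes, 5 of 6 were at least 2-fold higher in neuron-like cells. Sv2a, a glycoprotein of the vesicle membrane, was 6.55 CPM in cycling, 50.2 CPM in neuron-like and 77.1 CPM in oligodendrocyte-lineage-like cells. That is a 7.77-fold difference for neuron-like (4.99 to 12.1) and 10.8-fold for oligodendrocyte-lineage-like over cycling cells (5.57 to 19.98). Sv2b, its paralog, was 20.4, 43.6 and 0 CPM, so both paralogs were higher in neuron-like cells, by 2.16-fold for Sv2b (1.48 to 3.11), and parted in the glial class. Syp (synaptophysin) was 10.9 CPM in cycling and 70.9 CPM in neuron-like cells, a fold of 6.62 (4.64 to 9.44), but 10.3 CPM from 2 UMIs in the oligodendrocyte-lineage-like cells. Synpr, a synaptophysin relative, was 3.83-fold higher in neuron-like cells, with 0 UMIs in the glial class. Classed one by one, the neuron-like folds were 4.60 for Sv2a, 3.89 for Syp and 1.33 for Sv2b, the last no longer past 2-fold. The synapsins, which tether vesicles to each other, differed in another way. Syn2 was 23.0, 40.4 and 97.7 CPM, so its highest level was in the glial class, at 2.16-fold the neuron-like level (1.18 to 3.86). Syn1 was 4.33-fold higher in neuron-like than cycling cells (2.11 to 8.60), from 15 and 24 UMIs. Syn1 and Araf overlap at their 3′ ends on opposite strands, and Gm14703 lies on the opposite strand at the 3′ end of Syp. No source used here says whether counting used the strand.

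Part of the Syn1 promoter is printed because it holds matches to binding motifs of a repressor and an activator of neuronal genes. Promoters from RefSeq on GRCm38.p6 were found for 35 of the 44 listed genes, and the 250 bases before each start site were searched on both strands. The strings searched were TTCAGCACC, the left part of the RE1 element that binds the repressor REST, TGACGTCA, the cAMP response element that binds CREB, and CAGATG, an E-box of the kind bound by neuronal bHLH factors. The window at chrX:20921069-20921168, on the minus strand and outside GENCODE genes, covers bases 250 to 151 before the Syn1 start, with the RE1 left part and the CREB string in capitals.
Syn1: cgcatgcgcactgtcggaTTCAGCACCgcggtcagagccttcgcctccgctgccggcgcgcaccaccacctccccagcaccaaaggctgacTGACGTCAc
The full RE1 element, with its right part after the left, was searched as an exact string, with no mismatch allowed. An exact match was found in 0 of the 35 genes, Syn1 included, and in 3 of all 27025 genes with a promoter. In the printed Syn1 window, the bases after the left part come close to the right part without matching it exactly. The count of 0 therefore does not show that Syn1 lacks the right part, and inexact matches were not counted. The RE1 left part, searched without the right part, was in the promoters of 2 of the 35 genes, Syn1 and Nlgn1, and in 0.348% of all genes with one. CAGATG was in 5 of the 35 genes (14.3%) and in 16.3% of all genes with a promoter, near the background. A match of letters is a description, not a site or a cause.

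Among the synaptotagmins, Syt1, the fast calcium sensor of release, had the largest fold of the 36 genes in neuron-like over cycling cells, though its interval overlaps those of Nrxn3 and Rab3a. It was 5.27 CPM in cycling cells (33 UMIs), 62.2 CPM in neuron-like cells (57 UMIs) and 10.3 CPM in oligodendrocyte-lineage-like cells (2 UMIs). The neuron-like fold was 11.96 (7.66 to 19.0), and it was 5.77 when cells were classed one by one by marker score instead of by cluster. Thinned to 500 UMIs, 0.298% of cycling cells and 3.97% of neuron-like cells held a Syt1 UMI, against 1.08% and 8.29% without thinning. The microglia-like share was 0 of 87 cells, which allows up to 3.45%. Syt11, a synaptotagmin that does not bind calcium, was 199 CPM in cycling, 461 CPM in neuron-like and 648 CPM in oligodendrocyte-lineage-like cells. Its folds over cycling cells were 2.35 (2.10 to 2.62) and 2.99 (2.47 to 3.59), but classed one by one the glial fold of Syt11 was 0.94. Syt14 was 34.7, 52.4 and 25.7 CPM, a neuron-like fold of 1.53 (1.10 to 2.10).

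The release-site genes split. Rab3a, a small GTPase of the vesicle, was 17.4 CPM in cycling, 169 CPM in neuron-like and 35.99 CPM in oligodendrocyte-lineage-like cells. Its neuron-like fold was 9.85 (7.66 to 12.7), and 19.8 when the synapse genes were left among the genes used for clustering. Rab3a and Mpv17l2 overlap at their 3′ ends on opposite strands, and Colgalt1 lies on the opposite strand at the 3′ end of Unc13a. Rab3c, a close relative, was 54.6, 148 and 87.4 CPM, with a neuron-like fold of 2.75 (2.24 to 3.37). The scaffolds Rims1 and Bsn were 4.35-fold (2.58 to 7.20) and 2.95-fold (1.65 to 5.07) higher in neuron-like cells. Rims2 was not: it stood at 83.1 CPM in cycling and 90.5 CPM in neuron-like cells, a fold of 1.11 (0.87 to 1.40). Unc13a, the Munc13 priming factor, was 24.3, 45.8 and 10.3 CPM, the last from 2 UMIs, with a neuron-like fold of 1.91 (1.33 to 2.71).

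The complexins, which clamp the SNARE complex, differed from each other. Cplx1 was 40.7 CPM in cycling and 113 CPM in neuron-like cells, a fold of 2.82 (2.23 to 3.56). Cplx2 was 225 CPM in cycling and 190 CPM in neuron-like cells, a fold of 0.85 (0.73 to 1.00). Their intervals do not overlap, and Cplx2 was at least as high a share of UMIs in dividing cells as in neuron-like cells. After thinning, 10.2% of cycling cells (9.08 to 11.4) and 8.81% of neuron-like cells (6.63 to 11.4) held a Cplx2 UMI, against 34.0% and 20.6% without thinning. The microglia-like share was 3.45% (0.717 to 9.75), an interval that overlaps both. Both complexins were low in the oligodendrocyte-lineage-like cells. Cplx1 had 1 UMI there (5.14 CPM) and Cplx2 had 4 UMIs (20.6 CPM), a fold over cycling cells of 0.12 (0.0029 to 0.65) and 0.08 (0.02 to 0.22). Classed one by one, these folds were 1.49 and 0.78.

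Of the endocytosis genes, Snap91, which helps to gather vesicle membrane into clathrin coats, was 9.10, 60.0 and 46.3 CPM in cycling, neuron-like and oligodendrocyte-lineage-like cells. Its neuron-like fold was 6.68 (4.53 to 9.85), and 11.5 with the synapse genes left in the clustering. Amph (amphiphysin, which binds curved membrane) was 31.5, 48.0 and 56.5 CPM, a smaller neuron-like fold of 1.55 (1.09 to 2.15). Dnm1 (dynamin, which pinches vesicles off) held 12 UMIs in all kept P12 cells.

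Slc17a6 loads vesicles with glutamate (VGLUT2) and separated the neuron-like from the glial class more than any other counted gene with a UMI in both. It was 93.8 CPM in cycling (587 UMIs), 312 CPM in neuron-like (286 UMIs) and 5.14 CPM in oligodendrocyte-lineage-like cells (1 UMI). The neuron-like fold was 3.37 (2.92 to 3.89), and the glial fold over cycling cells was 0.05 (0.0013 to 0.28), or 0.64 with cells classed one by one. After thinning, 4.43% of cycling cells (3.68 to 5.28), 14.3% of neuron-like cells (11.6 to 17.5) and 0 of 104 oligodendrocyte-lineage-like cells held a UMI, the last allowing up to 2.88%. Without thinning the shares were 15.7%, 33.5% and 0.962%. The microglia-like cells held 0 UMIs of Slc17a6. Slc17a7 (VGLUT1), the transporter of mature granule neurons, held 5 UMIs in all kept P12 cells, 4 of them in the neuron-like class, and 7 UMIs in all kept P24-30 cells.

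Dense-core granule genes also split. Chgb, a granin that packs granule cargo, was 58.3, 418 and 46.3 CPM in cycling, neuron-like and oligodendrocyte-lineage-like cells, a neuron-like fold of 7.27 (6.28 to 8.41). After thinning, 2.72% of cycling cells, 16.2% of neuron-like cells and 1.15% of microglia-like cells held a Chgb UMI. Without thinning these were 10.8%, 40.8% and 3.45%. Scg2, another granin, was low and not higher in neuron-like cells, at 10.9, 7.64 and 0 CPM, a neuron-like fold of 0.71 (0.28 to 1.55). Scg5, a chaperone of a peptide-cutting enzyme, was 114, 272 and 226 CPM, with folds over cycling cells of 2.41 (2.08 to 2.79) and 1.82 (1.31 to 2.47). With cells classed one by one, the glial fold of Scg5 was 0.96. Scg3, which helps to sort cargo, was 193, 359 and 221 CPM, with a neuron-like fold of 1.88 (1.66 to 2.13). Chga was 41.7, 77.4 and 97.7 CPM, a neuron-like fold of 1.88 (1.43 to 2.46), so Chgb had the largest fold of the granins.

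Chgb and Scg2 both hold the same CREB string, and the matches are printed side by side with TGACGTCA in capitals. Any part of the string in their levels was not tested. The Chgb window is chr2:132781559-132781588 on the plus strand and the Scg2 window chr1:79440076-79440105 on the minus strand, both upstream of the RefSeq start and within an exon in GENCODE vM21.
Chgb: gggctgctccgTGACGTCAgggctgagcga
Scg2: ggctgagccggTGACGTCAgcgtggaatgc
The string was in 3 of the 35 genes with a promoter (8.57%), the other being Syn1, and in 1.77% of all genes with one.

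The adhesion genes were the only role in which all counted genes, 5 of 5, were at least 2-fold higher in oligodendrocyte-lineage-like than in cycling cells. Nrxn2, a neurexin, was 16.9 CPM in cycling, 84.0 CPM in neuron-like and 339 CPM in oligodendrocyte-lineage-like cells. Nrxn3 was 6.39, 68.7 and 139 CPM in the same order. The folds over cycling cells were 5.03 (3.70 to 6.81) and 18.4 (13.3 to 25.3) for Nrxn2, and 10.9 (7.23 to 16.6) and 19.98 (11.8 to 33.4) for Nrxn3. Both neurexins were therefore higher in either class than in dividing cells. Classed one by one, the neuron-like fold of Nrxn3 was 5.92. The neuroligins leaned to the glial class. Nlgn3 was 6.39, 14.2 and 103 CPM, a glial fold of 14.8 (8.20 to 25.9), and Nlgn1 was 15.01, 19.6 and 113 CPM, a glial fold of 6.93 (4.15 to 11.1). Nlgn1 was within counting error of the cycling level in neuron-like cells, at 1.33-fold (0.75 to 2.21). Nlgn2, the neuroligin of inhibitory synapses, was 7.99, 27.3 and 56.5 CPM, higher in both classes than in cycling cells. Classed one by one, the glial folds of Nlgn1 and Nlgn2 were 1.63 and 1.83. Nlgn3 shares runs of 50 bases at its 3′ end with the annotated gene Gm21986, so its count is less certain. Thinned to 500 UMIs, 0.633%, 3.97% and 13.5% of cycling, neuron-like and oligodendrocyte-lineage-like cells held an Nrxn2 UMI, against 3.76%, 12.1% and 43.3% without thinning. The microglia-like cells held 0 UMIs of Nrxn2, Nlgn1 and Nlgn3.

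The Nlgn1 window at chr3:26154087-26154186, on the minus strand, covers bases 200 to 101 before a RefSeq start and lies in an intron of longer GENCODE transcripts. It is shown because Nlgn1 shares with Syn1 the RE1 left part, in capitals. In neuron-like cells Nlgn1 was within counting error of the cycling level, and Syn1 was higher. The glial folds over cycling cells were 3.7 for Syn1 and 6.93 for Nlgn1, and both were 1.63 with cells classed one by one.
Nlgn1: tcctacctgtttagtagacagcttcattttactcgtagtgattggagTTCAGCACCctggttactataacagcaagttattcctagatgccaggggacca
Rest, which encodes the repressor that binds RE1, was 9.74 CPM in cycling cells (61 UMIs), 0 UMIs in neuron-like cells and 56.5 CPM in oligodendrocyte-lineage-like cells (11 UMIs). Against the limit of 3 UMIs, Rest was at most 0.34-fold in neuron-like over cycling cells. Any part of REST in the levels of Syn1 and Nlgn1 was not tested.

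Of the postsynaptic scaffolds, 1 of 3 counted genes was at least 2-fold higher in neuron-like cells. Homer1, which links receptors to the scaffold, was 28.7, 43.6 and 41.1 CPM in cycling, neuron-like and oligodendrocyte-lineage-like cells, a neuron-like fold of 1.54 (1.06 to 2.18). Dlg4 (PSD-95) was 6.39, 15.3 and 5.14 CPM, a neuron-like fold of 2.42 (1.22 to 4.55) from 14 and 40 UMIs. The 3′ end of Dlg4 shares runs of 50 bases with Hells and Kif11, genes of dividing cells, so its count is less certain. Dlg2, its relative, was 8.78, 12.0 and 0 CPM. Shank1 and Shank2 held 30 and 34 UMIs in all kept P12 cells, too few to compare.

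Compared directly with neuron-like cells, the glial class was at least 2-fold higher for 4 genes, Nlgn3, Nlgn1, Nrxn2 and Syn2, and at least 2-fold lower for 15, beside 17.2% and 16.8% of all genes. In that comparison Nlgn3 was 6.48-fold (3.07 to 14.2) and Nlgn1 5.15-fold higher (2.64 to 10.2). At the other end, Slc17a6 was 0.015-fold (0.00037 to 0.083), Cplx1 0.04-fold (0.0010 to 0.23) and Chgb 0.10-fold (0.045 to 0.19). Of the 8 release-site genes counted, 6 were among the 15 lower in the glial class, and 3 of the 5 adhesion genes were among the 4 higher. Neuron markers summed to 2606 CPM in the glial class, below the cycling level of 3804 CPM. All 5 adhesion genes had higher CPM in the glial class. Markers of astrocytes and Bergmann glia summed to 1090 CPM there and to 250 CPM in cycling cells, and their part was not tested.

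**Figure D2:**
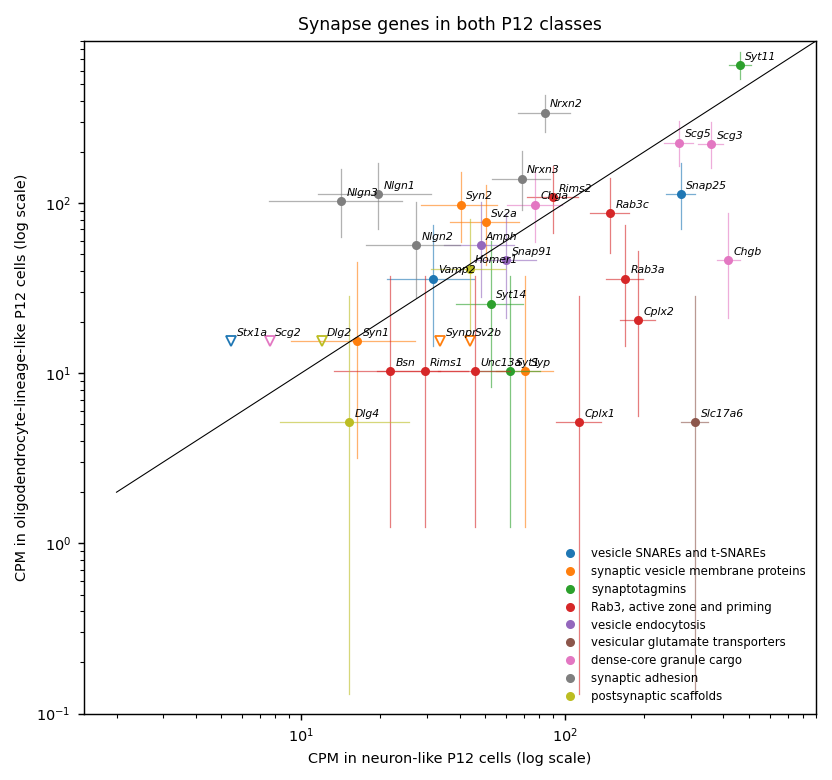
CPM of the 36 counted synapse genes in oligodendrocyte-lineage-like (vertical) against neuron-like (horizontal) P12 cells, both on log axes, with 95% counting intervals and the line of equal level. Open triangles mark genes with 0 UMIs in the glial class, drawn at its limit of 15.4 CPM; the adhesion genes lie above the line, and Slc17a6, Cplx1 and Chgb far below it.

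Other P12 clusters were compared too. A cluster of 626 cells led by Chrna3, Miat and Eln, given no name, had 1120 CPM of G2 and M phase markers and 6943 CPM of neuron markers, between the cycling and neuron-like cells for the latter. Its summed synapse genes, 2177 CPM, also lay between. Of the 36 genes, 8 were at least 2-fold higher there than in cycling cells and 1, Scg2, lower, beside 3.56% and 7.47% of all genes. Rab3a was 47.3 CPM, 2.54-fold the cycling level (1.80 to 3.55), Slc17a6 was 211 CPM, 2.11-fold (1.81 to 2.45), and Syn2 was 56.1 CPM, 2.28-fold (1.67 to 3.08). Cplx2 was 171 CPM, 0.71-fold (0.61 to 0.82).

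The cycling cells were not uniform either. A cluster of 314 cells was compared with one of 579 cells, both led by mitotic genes. In the smaller cluster 10 of the 36 genes were at least 2-fold higher and 1 lower than in the larger, beside 5.35% and 6.55% of all genes. Rab3a was 43.4 against 5.03 CPM, a fold of 8.80 (4.11 to 21.6), and Slc17a6 was 165 against 43.4 CPM, a fold of 3.88 (2.92 to 5.21). Cplx2, at 247 against 294 CPM, was not. The smaller cluster also had more neuron markers, 6060 against 2245 CPM, and deeper cells, with medians of 3013.5 and 2489 UMIs, and their part was not tested. Doublets were not called, so pairs of a dividing and a neuron-like cell can be among these cells.

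Other synapse genes, from 82 in a list of release machinery, granule processing, adhesion and scaffold genes, were counted in the same way at P12. Of 55 counted, 31 were at least 2-fold higher in neuron-like over cycling cells and 4 at least 2-fold lower, beside 12.2% and 15.1% of all genes. This list was also chosen with earlier results of these data known, so its count is not separate support. The median log2 fold of the 55 was 1.13. The highest folds were those of Lrrtm2, a postsynaptic adhesion protein (17.5, 12.1 to 25.6), Pcsk1n, an inhibitor of a granule protease (8.57, 5.47 to 13.5), the dynamin Dnm3 (5.54, 1.90 to 15.6), the scaffold Dlgap4 (4.32, 3.45 to 5.40) and Ppfia2, a liprin of the release site (4.21, 3.51 to 5.04). The 4 that were lower were Doc2a, a calcium sensor of release (0.22, 0.06 to 0.58), Syt13 (0.29, 0.18 to 0.44), the scaffold Homer2 (0.32, 0.22 to 0.45) and the clathrin light chain Cltb (0.47, 0.37 to 0.59). Homer2 was 120 CPM in cycling and 38.2 CPM in neuron-like cells, while Homer1 was 1.54-fold higher there. In a separate list of 4 genes of the repressor REST and its partners, 1 was at least 2-fold higher, Rcor2 (2.52), and 2 were lower, Rest, given above, and Sin3a, a co-repressor (0.46, 0.31 to 0.67).

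At P24-30, the summed synapse genes ran from 1423 CPM in tag G2 to 3418 CPM in tag G12 over the 13 tags with at least 100 kept cells, with a median of 2076 CPM. From low to high the tags were G2, G3, G6, G1, G16, G5, G7, G15, G4, G14, G13, G11 and G12. This order was nearly that of the summed neuron markers, which ran from 3138 CPM in G2 to 13993 CPM in G12, with a Spearman correlation of 0.98 over 13 tags. The tags share 1 library, and the synapse genes may have been among the genes that formed them. Median depth was 2708.5 UMIs in G2 and 1497 UMIs in G12, with a correlation of -0.89 with the summed genes, and its part was not tested. Of the 3 small tags, G8 (35 cells, 31037 CPM of microglia markers) had 258 CPM. G9 (11 cells) had 2739 CPM, with astrocyte markers at 19711 CPM and Purkinje cell markers at 3329 CPM, so it was mixed. G10 (77 cells, a median of 774 UMIs) had 2974 CPM.

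**Figure D3:**
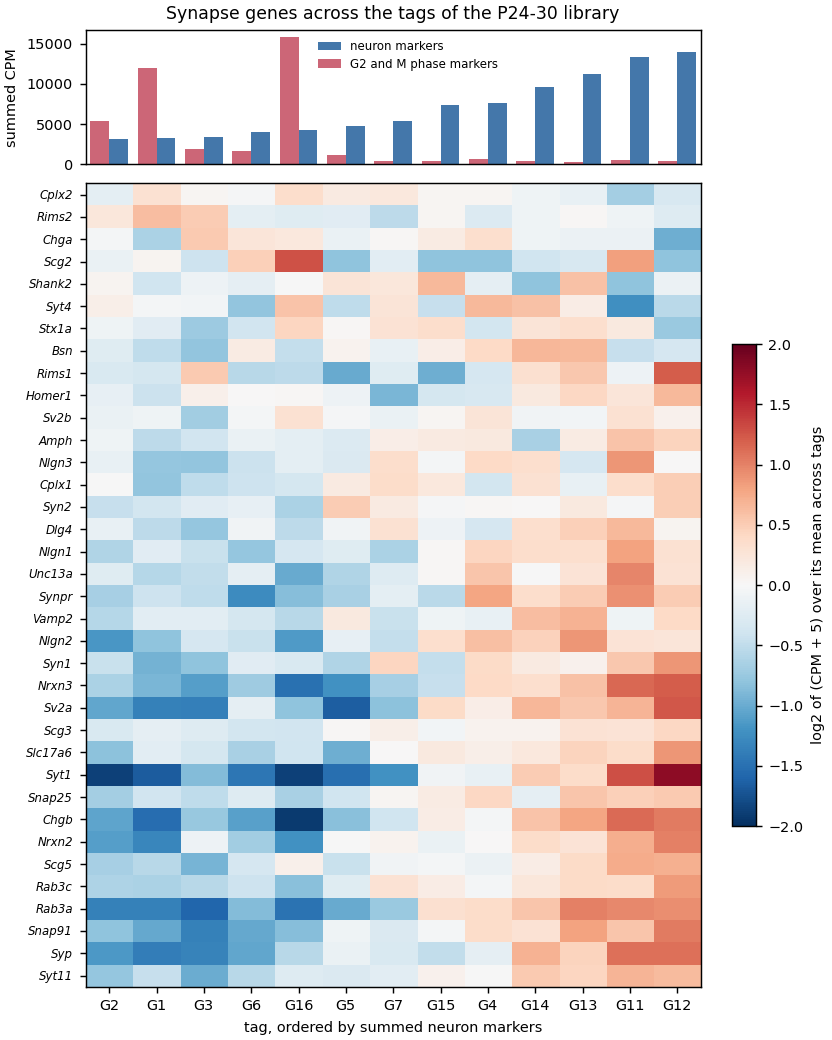
Lower panel: level of each of the 36 counted synapse genes in the 13 tags with at least 100 cells at P24-30, as log2 of CPM + 5 over its mean across tags (red high, blue low), genes ordered by their correlation with the neuron markers. Upper panel: summed CPM of neuron markers (blue), which orders the tags, and of G2 and M phase markers (red); most genes are blue on the left and red on the right, and Cplx2 and Rims2 are not.

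Most synapse genes were higher in the tags with more neuron markers, and the share of all genes with that order was not computed. Syt11 ran from 136 CPM in G3 to 443 CPM in G11, with a correlation of 0.95 over the 13 tags, and Syp from 8.86 CPM in G1 to 73.0 CPM in G12, with 0.94. Snap91 ran from 4.69 CPM in G3 to 45.6 CPM in G12, with 0.91, and Rab3a from 17.2 CPM in G3 to 129 CPM in G13, with 0.90. These 4 correlations were the highest of the list. Chgb had 49.5 CPM in G16, a median of 150 CPM and 443 CPM in G11. Slc17a6 had 100.6 CPM in G5, a median of 202 CPM and 374 CPM in G12. Snap25 had 93.6 CPM in G2, a median of 134 CPM and 226 CPM in G13. Syt1 was 1.45 CPM in G16, 7.81 CPM at the median tag and 76.1 CPM in G12, the widest range among these. The highest tag was G11, G12 or G13 for each of these 8 genes. Their correlations with median depth over the tags were also strong. They were -0.94 for Rab3a and Chgb, -0.92 for Syt1, -0.90 for Snap25, -0.87 for Syp and Snap91, -0.85 for Syt11 and -0.81 for Slc17a6. The part of depth was not tested.

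Others did not follow that order. Cplx2 ran the other way, from 177 CPM in G11 through a median of 294 CPM to 367 CPM in G16, with a correlation of -0.48. Rims2 had its highest level in G1, 53.99 CPM, and its lowest in G7, 21.8 CPM, with a correlation of -0.46. Chga peaked in G3 at 43.7 CPM and was lowest in G12 at 12.2 CPM, with -0.35. Scg2 was highest in G16, 15.999 CPM, and Stx1a was between 3.04 CPM in G12 and 13.1 CPM in G16. G16 and G1 were the tags with most G2 and M phase markers, 15896 and 12011 CPM. Among the scaffolds Dlg4 ran from 4.69 CPM in G3 to 20.9 CPM in G11, with a correlation of 0.74, and Homer1 from 8.97 CPM in G7 to 36.5 CPM in G12, with 0.57.

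Tag G13, with 505 cells of which 352 fell in neuron-like clusters, was compared with tag G2, with 892 cells of which 871 fell in cycling clusters. At P24-30 the genes under 50 UMIs were Vamp1, Syt5, Syt14, Dnm1, Slc17a7, Dlg2 and Shank1, which again left 36. Of these, 16 were at least 2-fold higher in G13 and 0 at least 2-fold lower, beside 13.9% and 12.1% of all genes. At a 3-fold limit 8 of the 36 were higher, beside 6.43% of all genes, and with at least 200 UMIs per gene 10 of 22 were at least 2-fold higher, beside 8.63%. Their median log2 fold was 0.85, after division by the median gene, which itself differed by a log2 of 0.23. Without that division the median was 1.08. With G11 to G13 summed over G1 and G2, 12 of the 36 were at least 2-fold higher, beside 13.4% of all genes. The median log2 fold was then 0.89. The pair of G13 and G2 was chosen with earlier results of these data known. Syt1 was 25.1 CPM in G13 (25 UMIs) and 1.46 CPM in G2 (4 UMIs), a fold of 14.7 (5.07 to 58.0). Rab3a was 129 and 21.2 CPM, a fold of 5.18 (3.77 to 7.19), and Nlgn2 was 50.3 and 8.41 CPM, a fold of 5.10 (3.06 to 8.76). Snap91 was 3.57-fold higher (2.10 to 6.17), Sv2a 3.47-fold (2.04 to 6.02), Nrxn3 3.41-fold (1.49 to 8.14), Syp 3.33-fold (2.06 to 5.46) and Chgb 3.19-fold (2.70 to 3.76). These 8 genes cover calcium sensing, vesicle, endocytosis, granule and adhesion roles. Tag G13 was mixed: markers of choroid plexus summed to 17587 CPM in it, from 5 cells of a choroid plexus cluster, against 94.7 CPM in G2. With only the neuron-like cells of G13 and the cycling cells of G2, the median log2 fold was 1.09, Chgb was 4.82-fold and Rab3a 7.39-fold higher, and Slc17a6 was 3.18-fold higher, against 2.11-fold (1.79 to 2.49) over the whole tags.

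Of the 36 genes, 8 had folds below 1. Cplx2 was 257 CPM in G13 and 248 CPM in G2, a fold of 0.89 (0.76 to 1.02). Rims2 was 34.2 and 40.2 CPM, a fold of 0.73 (0.48 to 1.07). Cplx1 was 0.76-fold (0.50 to 1.12) in G13 and 2.82-fold in neuron-like cells at P12, and Sv2b was 0.90-fold (0.56 to 1.43) and 2.16-fold. Over the 13 tags, however, Cplx1 ran from 20.95 CPM in G1 to 57.8 CPM in G12, with a correlation of 0.67 with the neuron markers, and Sv2b from 15.6 CPM in G3 to 36.5 CPM in G11, with 0.58. The groups compared differ between the libraries, and the difference between ages was not tested.

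**Figure D4:**
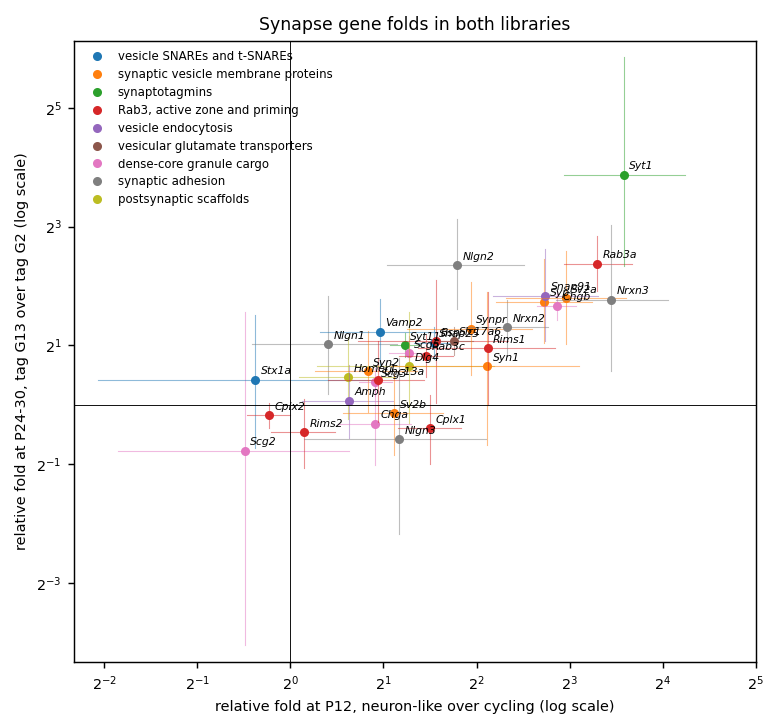
Relative fold of the 34 synapse genes counted in both libraries: P12 neuron-like over cycling cells (horizontal) against P24-30 tag G13 over tag G2 (vertical), log axes, with 95% counting intervals; 1 is the median gene of each comparison. Of the 34, 14 were at least 2-fold higher in both, 8 at P12 alone, 2 at P24-30 alone and 10 in neither.

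Of the 34 genes counted in both libraries, 14 were at least 2-fold higher in both comparisons: Snap25, Syp, Synpr, Sv2a, Syt1, Syt11, Rab3a, Bsn, Snap91, Slc17a6, Chgb, Nrxn2, Nrxn3 and Nlgn2. Another 8 passed at P12 alone, 2 at P24-30 alone (Vamp2 and Nlgn1) and 10 in neither. Of all 9774 genes counted in both libraries, 6.01% were higher in both comparisons, 6.46% at P12 alone, 6.25% at P24-30 alone and 81.3% in neither. Cplx2 and Scg2 were below 1 in both. The Spearman correlation of the folds over the 34 genes was 0.81, as a description across genes, which are not independent.

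The oligodendrocyte-lineage-like pattern could be set beside 45 cells of that name at P24-30. Nrxn2 was 374 CPM there, Nrxn3 198 CPM, Nlgn3 135 CPM, Nlgn1 104 CPM and Sv2a 146 CPM, against 33.0, 1.89, 6.46, 12.1 and 10.6 CPM in the 2463 cycling cells of that library. Slc17a6 was 10.4 CPM, from 1 UMI, against 137 CPM in cycling and 366 CPM in the 1194 neuron-like cells. In either library the glial class thus had these adhesion genes above the cycling level and Slc17a6 below it. Cplx2, in contrast to 20.6 CPM at P12, was 125 CPM in these cells, from 12 UMIs.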

How the data were processed

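Drop-seq 3′ libraries of dissociated tumours were made at P12 and at P24-30, 1 sample each, per the labels' protocols. The P12 file as the authors deposited it holds whole-number counts per gene and barcode, taken here as UMIs. For P24-30 the authors deposited natural logs, in which each gene's fraction of its cell's UMIs was scaled to 10000 and 1 was added. All 6195642 values above 0 (100%) gave whole UMIs within 0.001, so UMIs were recovered from them. CASAVA and mm10 are named per the submitters' processing notes. No source used here names the aligner, counter or annotation. Totals were 12265399 UMIs in 6000 P12 barcodes and 12284458 UMIs in 4991 P24-30 cells.

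Cells under 500 UMIs or above 20% mitochondrial UMIs were dropped. Each library was clustered with scanpy 1.11.5 (2000 variable genes without the synapse genes, 30 components, 15 neighbours, Leiden resolution 1, seed 1). Clusters were named from marker lists by mean log2 fold over the other cells (pseudocount 20 CPM), with at least 2.5 and 3 raised markers for glia, 0.75 for neurons and 0.5 for cycling cells. No doublet caller was run.

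UMIs were summed per class or tag. Folds carry exact conditional 95% intervals, levels exact Poisson and shares exact Clopper-Pearson intervals, and a group at 0 was set to 3 UMIs as a bound. No test was made with 1 library per age. Folds were checked on simulated counts drawn with counting error alone, which cannot test variation between cells or pairs of cells. A fixed 2-fold size counted a gene as higher or lower. All listed genes are named, with fuller values for the 2 of each role with most UMIs and those of 8-fold or more, or 0.5-fold or less, and the 5 highest and 5 lowest other synapse genes. Values of further genes, tags and clusters were added after results were seen. Both libraries' genes, lists and naming limits were chosen with earlier results of these data known. Positions are from GENCODE vM21, on mm10.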

Additional observations from a re-analysis of the deposited data

How the results depend on the processing

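For synapse genes at least 2-fold higher, 22 of 36 in neuron-like over cycling cells became 10 of 21 with at least 200 UMIs per gene (9.2% of all genes) and 13 of 36 at 3-fold (5.28%). For tag G13 over G2, 16 of 36 became 10 of 22 (8.63%) and 8 of 36 (6.43%), since fewer genes or a larger fold enter by construction. The median log2 fold of G13 over G2, 0.85, was 1.08 without division by the median gene and 1.09 with only the neuron-like cells of G13 and the cycling cells of G2, an alternative added after seeing the data. For oligodendrocyte-lineage-like over cycling cells, classing cells one by one gave 5 genes in place of 12, beside 4.93% of all genes in place of 15.8%, and a median of 0.0801 in place of 0.68, with Cplx1 at 1.49-fold and Syt11 at 0.94-fold, on the other side of 1. Counting genes from 10 UMIs gave a median of 0.27. The cause of the shift under one-by-one classes was not tested. Over all alternatives, 18 of 360, 16 of 360 (2 of them reversed) and 11 of 252 values moved beyond their counting intervals in these 3 comparisons. All 16 of the glial comparison came from the one-by-one classes alone. They include every counted adhesion gene, Slc17a6, Sv2a, Syt11 and both complexins, so the glial folds depend on how cells were classed. Shares of cells moved in 28 of 36 values with the thinning depth. No paired analysis was possible because each age has 1 library. Counts under 10 UMIs, frequent in the 104 oligodendrocyte-lineage-like cells, limit what those folds can show.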
